A study of Homo sapiens with 5 samples.

Results

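The clustered protocadherins are cell-surface adhesion proteins of the cadherin superfamily encoded by the PCDHA, PCDHB and PCDHG gene clusters, which lie one after another on human chromosome 5. They were followed here in edited and unedited cells of SVG-10B1, an established human astroglial line. Members were all genes whose symbol begins with PCDHA, PCDHB or PCDHG and that had a value in the deposited count tables. This gave 57 genes of the 57905 with a value, namely 16 alpha, 19 beta and 22 gamma members, while another 34 entries with such symbols had an empty value. The 3 edited libraries carried the genotype IDH1 R132H/WT, a heterozygous substitution in the cytosolic isocitrate dehydrogenase, and came from 1 sample of a clone numbered 2 and from replicates 1 and 2 of a clone numbered 6. The 2 wild-type libraries, replicates 1 and 2, came from the unedited line, which the labels number as clone 1. All 5 samples are labelled with the same cell line, medium and passaging.

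Each alpha or gamma transcript joins 1 variable exon, which has its own promoter and encodes the extracellular cadherin repeats, to constant exons shared by the whole cluster. Beta genes each consist of a single coding exon and share no constant exon. A cell uses only some of these promoters, a choice known to involve DNA methylation, the insulator protein CTCF and the cohesin complex, and the chosen proteins bind identical partners on other cells. Neurons use this recognition in self-avoidance of their branches, and gamma members are also known in astrocytes.

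Between the genotypes 5 of 22 members tested were called, all of them beta genes and lower, where 10.2% of all genes were lower. PCDHB2, PCDHB8, PCDHB16, PCDHB9 and PCDHB13 fell in the edited cells. All but PCDHB13 needed wild type to pass the low-count filter. PCDHB16, for example, averaged 0.420 ± 0.235 CPM (scaled read counts) in edited and 4.66 ± 1.38 CPM in wild-type libraries (SD, n = 3 and 2), while PCDHB11, the beta gene with the most reads, was not called. No alpha or gamma gene was called in either direction with all edited libraries in 1 group, where only 1 alpha and 11 gamma genes were tested. With clone 6 replicate 2 set against wild type by itself, PCDHB12, PCDHB14 and PCDHGC3 were called lower as well, and PCDHB14 and PCDHGC3 also differed from the other edited libraries.

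Most beta promoters and many alpha and gamma promoters carry a short conserved element with the core CGCT, known as a site that CTCF reads in these clusters. The element is shown here for beta genes that fell and others of the cluster. The stretches shown were placed on the letters GGTGGCGCT, which are therefore the same in all of them. Sequences are from RefSeq (GRCh38.p14, chromosome 5, plus strand), 30 bases each, with the letters GGTGGCGCT in capitals. The first 5 belong to the genes called lower in edited cells, the other 4 to genes not called with all edited libraries in 1 group. PCDHB10 did not pass the low-count filter of that comparison and was not called with a filter on total reads. PCDHB12 and PCDHB14 were called lower in clone 6 replicate 2.
PCDHB2: agacgcggGGTGGCGCTgcagccttagaag
PCDHB8: ggacccgtGGTGGCGCTgcaggataagaag
PCDHB16: gaacgcgtGGTGGCGCTgcaggttaagatg
PCDHB9: agccacaaGGTGGCGCTgcagactgaagag
PCDHB13: ggacgcgtGGTGGCGCTgcaggataagaag
PCDHB10: ggccacacGGTGGCGCTgcaggctaaagag
PCDHB12: agacgcgtGGTGGCGCTgcaggataatatc
PCDHB14: agacacatGGTGGCGCTacaggataagacg
PCDHB15: caacgcatGGTGGCGCTgcaggctaaggct

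A promoter entry of 300 bases, from 250 bases before the annotated start, existed for 46 of the 57 members and for 27305 symbols in all. GGTGGCGCT was found on either strand in 13 of 14 beta promoters, all but that of PCDHB1, in 0 of 13 alpha promoters and in 0 of 19 gamma promoters. Across all promoters it was found in 0.619%. The core CGCT alone, which lies within GGTGGCGCT, was found in 12 of 13 alpha, 14 of 14 beta and 19 of 19 gamma promoters, but also in 71.9% of all promoters. GTCGCT stood in 11 of 13 alpha promoters against 9.61% of all promoters, and CGCTGTT in 12 of 19 gamma promoters against 2.73%.

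Likeness of the 30-base windows followed the change of the beta genes only in part, and no test was run. PCDHB11, the beta gene with the most reads, had no promoter entry. PCDHB13, which fell, differed at 1 of 30 positions from PCDHB8 and at 3 from PCDHB16, which also fell. From PCDHB12, which was not called with all edited libraries together, PCDHB13 differed at 4. PCDHB9 lay closest to its neighbour PCDHB10, at 4 differing positions, and differed from PCDHB16 at 12. The 250 bases before the start of PCDHB16 (chr5:141182137-141182386) and of PCDHB12 (chr5:141208469-141208718) are shown as the pair of a gene that fell and a well-read gene that was not called. They were 55.2% identical, had a GC content of 41.2% and 30.8%, and held 6 and 5 CpG dinucleotides, against a median of 11 over all promoters.
PCDHB16: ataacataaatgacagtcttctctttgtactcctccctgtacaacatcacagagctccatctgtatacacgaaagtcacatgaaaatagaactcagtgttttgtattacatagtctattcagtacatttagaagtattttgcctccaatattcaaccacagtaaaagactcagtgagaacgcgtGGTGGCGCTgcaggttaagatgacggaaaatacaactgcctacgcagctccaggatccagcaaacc
PCDHB12: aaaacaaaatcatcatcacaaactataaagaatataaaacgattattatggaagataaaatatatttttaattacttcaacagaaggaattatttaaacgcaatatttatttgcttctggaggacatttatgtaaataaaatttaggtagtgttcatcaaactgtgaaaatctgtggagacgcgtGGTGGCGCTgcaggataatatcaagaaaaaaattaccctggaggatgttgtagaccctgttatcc

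Reads assigned to genes came to 14802585 in clone 2, 13572114 and 16559077 in clone 6 replicates 1 and 2, and 21881726 and 17603317 in wild-type replicates 1 and 2. Ribosomal RNA genes took between 0.417 and 9.79% of them. Clone 2 and clone 6 replicate 1, though labelled as different clones, differed less from each other (SD of the log2 differences over genes 0.318) than the wild-type pair did (0.342). The clone 6 pair differed more (0.584), and clone 6 replicate 2 is therefore also given apart. Over the members tested between genotypes the order was another. There the SD was 0.581 for clone 2 and clone 6 replicate 1, 0.527 for the clone 6 pair and 0.444 for the wild-type pair. The labels do not say whether replicates were separate cultures, so p-values measure the spread between these libraries, which may be technical. With 2 edited clones and no further unedited clone, the edit and the clones cannot be told apart. Levels are given as CPM, read counts scaled to library size after TMM scaling, a correction for differences in library composition. Of 9 astrocyte markers, AQP4 had 0 reads, S100B 1 read and GFAP 35 reads over all libraries, while 4 were tested, of which GJA1 and CLU were higher in edited cells and 0 were lower. SOX9 was lower in every edited library and not called (log2 fold change -0.53, SE 0.21, edgeR adjusted p = 0.120), and ALDH1L1 had 1 read in edited and 10 reads in wild-type libraries. The astrocyte list, almost wholly GJA1 and CLU, summed to between 491 and 557 CPM in edited and between 211 and 219 CPM in wild-type libraries.

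The members held few reads. Over the 5 libraries together they had 5655, of which 146 fell on alpha, 1703 on beta and 3806 on gamma genes. At least 10 reads in total were reached by 42 of the 57 members, namely 5 of 16 alpha, 15 of 19 beta and all 22 gamma genes. Another 12 had at least 1 but fewer than 10 reads, and PCDHA8, PCDHA14 and PCDHB1 had 0. At these depths, 3 reads in 1 library correspond to between 0.139 and 0.230 CPM. In bulk RNA, fewer cells using a gene and less RNA per cell cannot be told apart.

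Summed over the cluster, beta transcripts stood at 14.7, 15.5 and 10.2 CPM in clone 2 and clone 6 replicates 1 and 2, against 30.1 and 25.1 CPM in wild-type replicates 1 and 2. Every edited library lay below both wild-type libraries. The mean was 13.5 ± 2.85 CPM in edited (SD, n = 3) and 27.6 ± 3.55 CPM in wild-type libraries (SD, n = 2), a ratio of 0.488. Gamma transcripts summed to 49.9, 52.3 and 30.1 CPM in clone 2 and clone 6 replicates 1 and 2, against 48.1 and 45.3 CPM in wild-type replicates 1 and 2. Here only clone 6 replicate 2 lay below wild type, and the genotypes overlapped. Alpha transcripts summed to 1.74, 2.30 and 0.996 CPM in the edited libraries, in the same order, and to 2.22 and 1.38 CPM in wild type, again with overlap. The ratio of the means was 0.945 for gamma and 0.934 for alpha, with no test run on any of these sums.

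**Figure D1:**
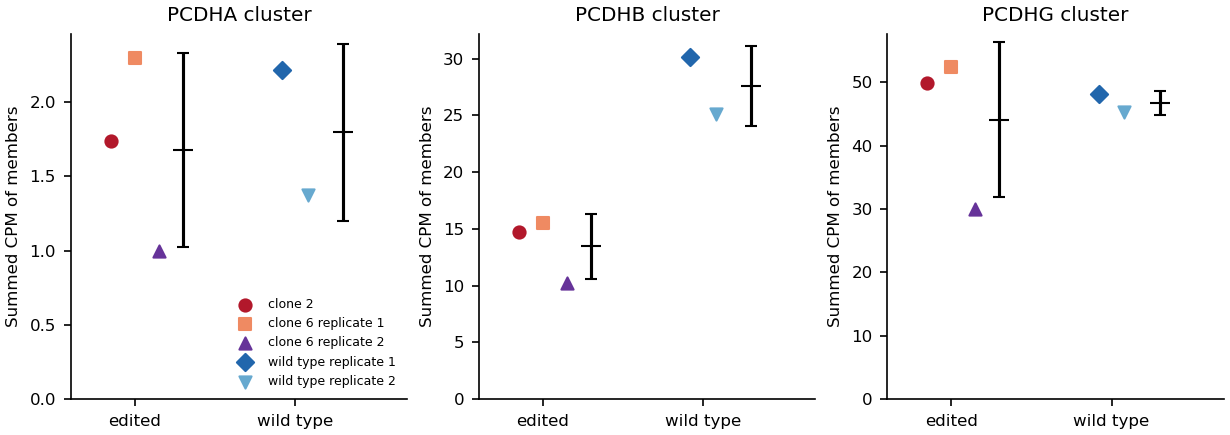
Summed CPM of the members of each cluster (vertical axes, linear, starting at 0) in the 3 edited libraries, left, and the 2 wild-type libraries, right. Symbols are single libraries and black bars give mean ± SD. The edited beta sums, 10.2 to 15.5 CPM, lie below both wild-type sums, while gamma and alpha sums overlap.

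The main comparison set the 3 edited libraries against the 2 wild-type libraries in edgeR's quasi-likelihood test over all 15500 genes that passed a low-count filter set by genotype, with Benjamini-Hochberg adjustment and a threshold of 0.05. Of the members, 22 passed that filter, 1 alpha, 10 beta and 11 gamma genes. Of these, 5 were called lower, where 10.2% of all genes tested were, and 0 were called higher, where 8.27% of all genes were. At an unadjusted p below 0.05 the same test had 6 members lower and 0 higher, and DESeq2 also called 5 lower and 0 higher. PCDHB2, PCDHB8 and PCDHB9 passed the filter through wild type alone, with 0 edited libraries above its limit of 0.604 CPM. PCDHB16 had 1 edited library above that limit, where the filter asked for 2 libraries, so it also needed wild type to pass.

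A filter that did not use the genotypes, at least 10 reads in total, tested all 42 members that reached it. It called 6 beta genes lower, the 5 above and PCDHB6, of 15, against 7.22% of all genes, and 0 members higher against 6.01%. At an unadjusted p below 0.05 there were 8 lower members, 7 of them beta genes, and 1 higher, a gamma gene. Of all 20778 genes, 2880 were lower and 2951 higher at that threshold. The median log2 fold change was -1.77 over the 15 beta genes, -0.02 over the 22 gamma genes and -0.59 over the 5 alpha genes, beside 0.02 over all 20778 genes tested this way. In single libraries, 14 of the 42 members lay lower in every edited than in every wild-type library, 10 beta, 3 gamma and 1 alpha gene, which is 33.3% beside 23.6% of all genes. The opposite held for 1 alpha and 1 gamma gene, 4.76% beside 22.6% of all genes.

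Of the beta genes called lower, PCDHB8, PCDHB16 and PCDHB9 lie side by side, while PCDHB2 and PCDHB13 lie apart from them. In the order of the annotation (GENCODE 29), the cluster runs PCDHB1 to PCDHB6, then PCDHB17, PCDHB7, PCDHB8, PCDHB16, PCDHB9 to PCDHB14, PCDHB18, PCDHB19P and PCDHB15. Every gene from PCDHB5 to PCDHB9 in that order had lower CPM in all edited libraries than in both wild-type libraries. For PCDHB17 this rests on 1 read in each wild-type library. The next genes, PCDHB10 and PCDHB11, overlapped between genotypes. Beyond them PCDHB12, PCDHB13 and PCDHB14 were lower in every edited library, PCDHB12 only narrowly, and PCDHB13 was called.

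**Figure D2:**
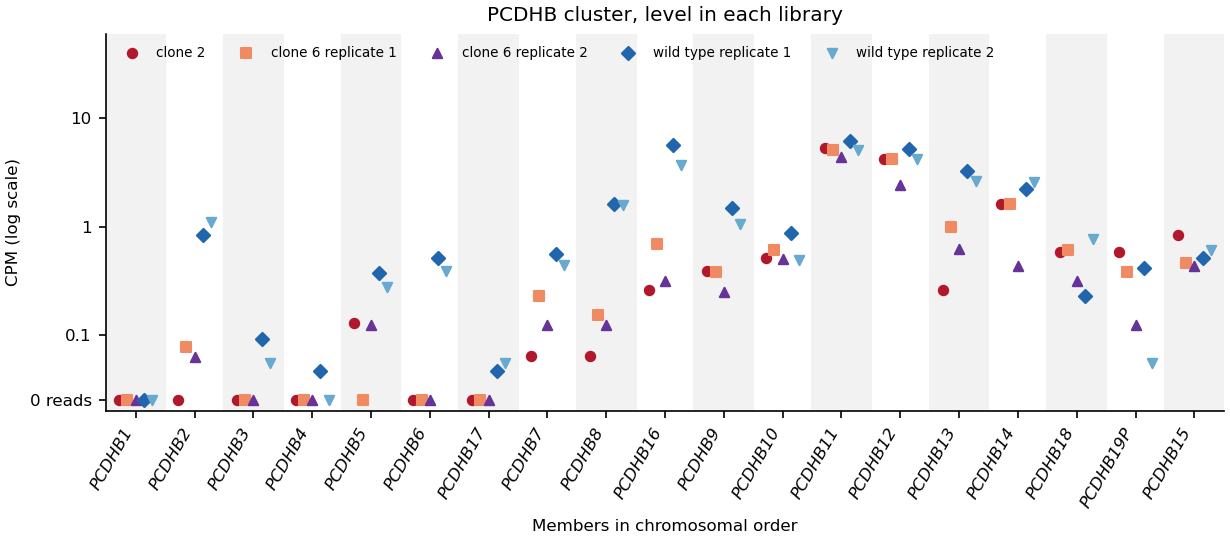
CPM of each beta member (vertical axis, log scale, with 0 reads drawn at the bottom line) in the 5 libraries, members in chromosomal order. The edited libraries, left in each column, lie below both wild-type libraries from PCDHB5 to PCDHB9 and again from PCDHB12 to PCDHB14. PCDHB17 has 1 read in each wild-type library, and PCDHB12 is lower only narrowly. PCDHB11 stands between 4.36 and 6.19 CPM in every library.

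PCDHB2 (ENSG00000112852) opens the group that fell, near the start of the cluster. It had 0 reads in clone 2 and 1 read each in clone 6 replicates 1 and 2, against 18 and 20 reads in wild-type replicates 1 and 2. The genotypes were far apart, with edited libraries at or next to zero. The mean was 0.0463 ± 0.0407 CPM in edited (SD, n = 3) and 0.966 ± 0.190 CPM in wild type (SD, n = 2). With 2 edited reads in all, wild type exceeded edited cells 21.3-fold, with a 95% counting interval of 5.50 to 182. The log2 fold change was -4.21 (SE 0.65, edgeR adjusted p = 0.00811). The call was lost without wild-type replicate 1 (edgeR adjusted p = 0.0700) or without wild-type replicate 2 (0.0818).

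PCDHB8 (ENSG00000120322) had 0.0644, 0.153 and 0.125 CPM in clone 2 and clone 6 replicates 1 and 2, against 1.62 and 1.60 CPM in wild-type replicates 1 and 2. These stood for 1, 2 and 2 reads in the edited libraries and for 35 and 29 reads in wild type. All edited libraries were low and close together, and so were the wild-type libraries at their higher level. PCDHB8 fell by 3.75 on the log2 scale (SE 0.41, edgeR adjusted p = 0.00271).

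PCDHB16 (ENSG00000196963), the next gene along, was among the most read beta genes of wild-type cells. It had 0.258, 0.690 and 0.311 CPM in clone 2 and clone 6 replicates 1 and 2, against 5.63 and 3.69 CPM in wild-type replicates 1 and 2. Both wild-type libraries lay several times above every edited one. The mean was 0.420 ± 0.235 CPM in edited (SD, n = 3) and 4.66 ± 1.38 CPM in wild-type libraries (SD, n = 2), and PCDHB16 fell by 3.50 on the log2 scale (SE 0.41, edgeR adjusted p = 0.00330). PCDHB8 and PCDHB16 were called under every alternative run for this comparison, each left-out library included.

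PCDHB9 (ENSG00000177839) fell less. It had 0.386, 0.383 and 0.249 CPM in clone 2 and clone 6 replicates 1 and 2, against 1.48 and 1.05 CPM in wild-type replicates 1 and 2. The groups did not overlap, and the edited libraries kept a measurable level of 4 to 6 reads each. The log2 fold change was -1.89 (SE 0.38, edgeR adjusted p = 0.0193). This call was lost without wild-type replicate 1 (edgeR adjusted p = 0.196), wild-type replicate 2 (0.0852), clone 2 (0.0554) or clone 6 replicate 1 (0.0556), and with the reads of those 2 edited libraries summed (0.0517).

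PCDHB13 (ENSG00000187372) stands apart from the others in position, between genes that were not called. It had 0.258, 0.996 and 0.623 CPM in clone 2 and clone 6 replicates 1 and 2, against 3.28 and 2.64 CPM in wild-type replicates 1 and 2. Clone 2 was the lowest library and all edited libraries lay below wild type. The log2 fold change was -2.27 (SE 0.44, edgeR adjusted p = 0.0167), and the call was lost without wild-type replicate 1 (0.150) or wild-type replicate 2 (0.0890).

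Some genes of the same stretch had too few reads for the main filter. PCDHB6 had 0 reads in each edited library, against 11 and 7 reads in wild-type replicates 1 and 2. Against a floor of 3 reads per library it was at least 2.20-fold lower, and with the filter on total reads it was called (edgeR adjusted p = 0.0264). PCDHB7 had 1, 3 and 2 reads in clone 2 and clone 6 replicates 1 and 2, against 12 and 8 reads in wild-type replicates 1 and 2, and was not called (edgeR adjusted p = 0.0887). PCDHB5 had 2, 0 and 2 reads in the edited libraries, in that order, against 8 and 5 reads in wild type (edgeR adjusted p = 0.191). All 3 genes were lower in every edited library. PCDHB3, PCDHB4 and the pseudogene PCDHB17 had at most 3 reads in total, all of them in wild type.

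The pair of beta genes with the most reads was not called. PCDHB11 (ENSG00000197479) had 5.28, 5.06 and 4.36 CPM in clone 2 and clone 6 replicates 1 and 2, against 6.19 and 5.06 CPM in wild-type replicates 1 and 2. Clone 2 lay between the wild-type libraries, and the log2 fold change of -0.20 (SE 0.19) was not called (edgeR adjusted p = 0.496). PCDHB12 (ENSG00000120328) had 4.19, 4.21 and 2.43 CPM in the edited libraries, in that order, against 5.22 and 4.24 CPM in wild type. Clone 2 and clone 6 replicate 1 came close to wild-type replicate 2, clone 6 replicate 2 stood lower, and the log2 fold change of -0.40 (SE 0.28) was not called (edgeR adjusted p = 0.369).

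At lower levels, PCDHB10 averaged 0.542 ± 0.0620 CPM in edited (SD, n = 3) and 0.686 ± 0.270 CPM in wild-type libraries (SD, n = 2), with overlap. PCDHB15 averaged 0.578 ± 0.225 CPM in edited and 0.556 ± 0.0687 CPM in wild-type libraries, also with overlap. The pseudogenes PCDHB18 and PCDHB19P overlapped between the genotypes too.

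Ratios between genes within a library cannot be altered by any scaling of libraries. The pairs here set a called gene against one that was not called, so they restate the same reads and are no further test. For each 100 reads of PCDHB11 there were 4.88, 13.6 and 7.14 reads of PCDHB16 in clone 2 and clone 6 replicates 1 and 2, against 91.0 and 72.8 in wild-type replicates 1 and 2. For each 100 reads of PCDHB12 there were 6.15, 23.6 and 25.6 reads of PCDHB13 in the edited libraries, in that order, against 62.8 and 62.3 in wild type. As a share of all beta reads, PCDHB11 made up 35.8, 32.7 and 42.7% in the edited libraries and 20.6 and 20.2% in wild type. PCDHB16 made up 1.75, 4.46 and 3.05% in the edited libraries and 18.7 and 14.7% in wild type. Beta reads of the edited cells thus came for the larger part from PCDHB11 and PCDHB12.

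**Figure D3:**
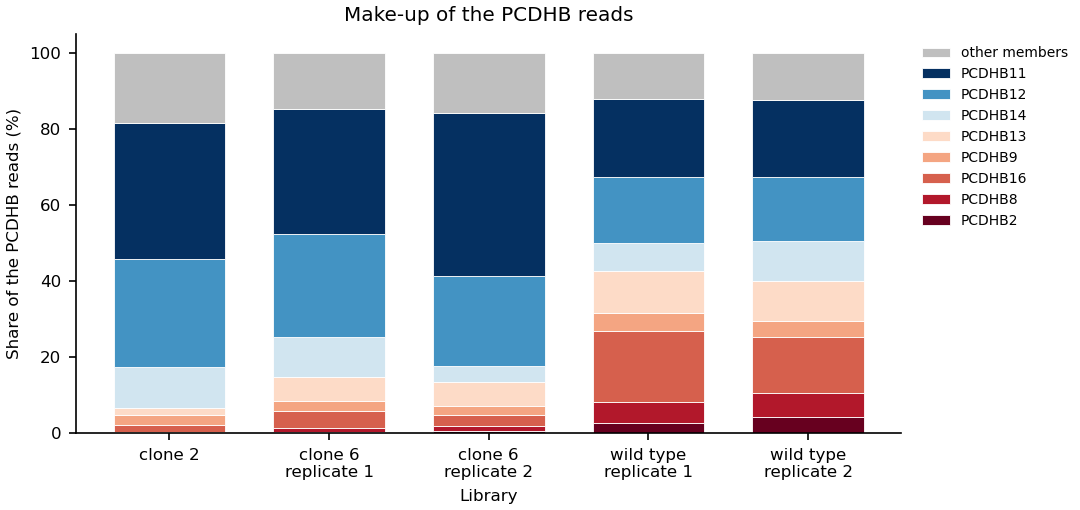
Share of all beta reads (vertical axis, %) taken by single genes in each library, edited libraries left and wild type right. Red and orange shades are the 5 genes called lower, blue shades PCDHB11, PCDHB12 and PCDHB14, grey all other beta members. PCDHB11 takes 32.7 to 42.7% of the edited and 20.2 to 20.6% of the wild-type beta reads.

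Beta genes resemble one another, which bears on how reads can be assigned. The coding sequences of PCDHB8 and PCDHB13, which both fell, are 93.9% identical, and 52.2 and 54.7% of their windows of 50 bases occur in no other member. PCDHB9, which fell, and PCDHB10, which was not called, are 92.8% identical. PCDHB11 and PCDHB12 are 91.2% identical. For PCDHB16 the closest member, PCDHB15, is 80.1% identical and 75.3% of its windows are its own. The sources used here do not give how the authors' counting treated reads that match several genes, so values of the near-identical pairs are uncertain. PCDHB16 shares 24.9% of its exon bases with other annotated genes, against 8.07% for PCDHB8, 7.63% for PCDHB9 and 0% for PCDHB13, and its value is uncertain in that way.

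Gamma genes fall into the A and B subfamilies and the C-type genes PCDHGC3, PCDHGC4 and PCDHGC5, which lie at the end of the cluster. All 22 had at least 10 reads, 11 passed the main filter, and edgeR called 0 lower and 0 higher, with 1 lower and 0 higher at an unadjusted p below 0.05. PCDHGC3 (ENSG00000240184), whose protein is known to bind the Wnt pathway component Axin1, had by far the most reads of any member. It had 27.1, 27.7 and 12.4 CPM in clone 2 and clone 6 replicates 1 and 2, against 22.7 and 22.8 CPM in wild-type replicates 1 and 2. The edited libraries lay on both sides of wild type, with clone 2 and clone 6 replicate 1 above it and clone 6 replicate 2 below. The log2 fold change over all edited libraries was therefore -0.03 with an SE of 0.33 (edgeR adjusted p = 0.966).

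PCDHGA6 (ENSG00000253731) had 7.21, 8.28 and 7.04 CPM in clone 2 and clone 6 replicates 1 and 2, against 8.08 and 7.48 CPM in wild-type replicates 1 and 2. Its libraries overlapped throughout (log2 fold change -0.05, SE 0.16, edgeR adjusted p = 0.839). PCDHGB4 (ENSG00000253953) had 3.80, 4.90 and 3.36 CPM in the edited libraries, in that order, against 5.03 and 5.50 CPM in wild type. The highest edited library came close to the lowest wild-type one, and the log2 fold change of -0.39 (SE 0.22) was not called (edgeR adjusted p = 0.252). PCDHGB1 averaged 1.67 ± 0.136 CPM in edited (SD, n = 3) and 1.62 ± 0.262 CPM in wild-type libraries (SD, n = 2), with overlap.

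PCDHGB3 came closest to a call among the gamma genes. It had 0.451, 0.383 and 0.311 CPM in clone 2 and clone 6 replicates 1 and 2, against 1.11 and 0.825 CPM in wild-type replicates 1 and 2. The genotypes did not overlap, with a log2 fold change of -1.34 (SE 0.37, edgeR adjusted p = 0.0523). PCDHGB3 and PCDHGA2, which follows, fall outside the rule for named genes and were chosen after their values were seen. PCDHGA2 lay higher in every edited library, with 7, 4 and 8 reads in clone 2 and clone 6 replicates 1 and 2 and 4 and 0 reads in wild-type replicates 1 and 2, and was not called with the filter on total reads (log2 fold change 2.03, SE 0.84, edgeR adjusted p = 0.165). The neuronal C-type gene PCDHGC4 had 6, 6 and 7 reads in the edited libraries, in the same order, and 5 and 9 in wild type. PCDHGC5 had 4, 10 and 4 reads in the edited libraries and 11 and 6 in wild type, and both overlapped between genotypes.

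**Figure D4:**
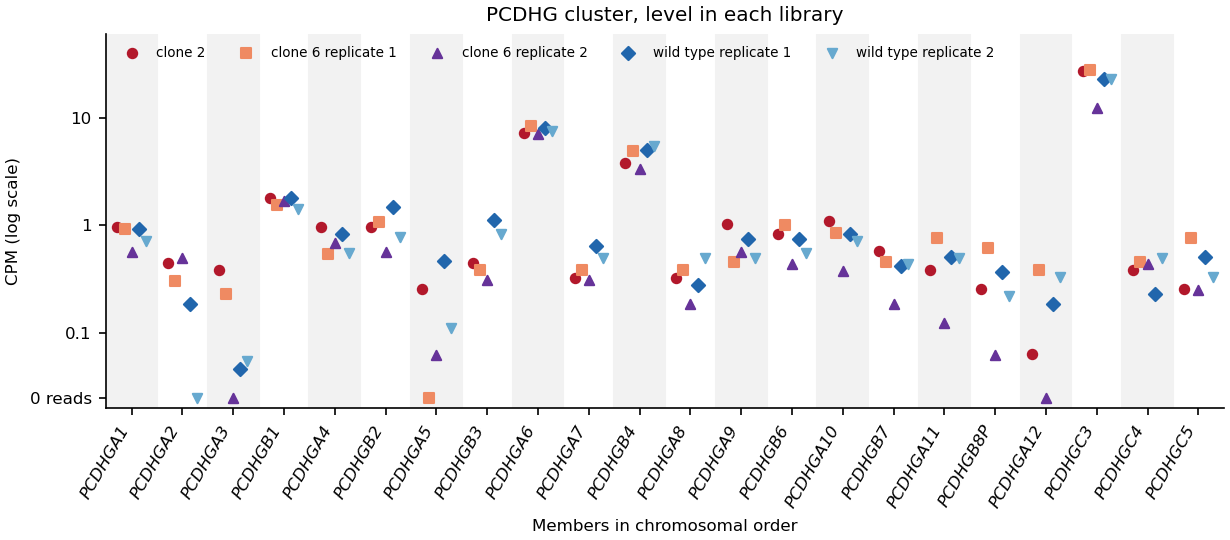
CPM of each gamma member (vertical axis, log scale, with 0 reads drawn at the bottom line) in the 5 libraries, members in chromosomal order, edited libraries left in each column. PCDHGC3 stands highest in every library, and its level in clone 6 replicate 2, 12.4 CPM, lies below the 22.7 to 27.7 CPM of the other libraries.

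Alpha genes were close to the limit of detection. PCDHA2 (ENSG00000204969) had the most reads, 9, 12 and 4 in clone 2 and clone 6 replicates 1 and 2, against 8 and 5 in wild-type replicates 1 and 2. Clone 6 replicate 2 had a lower CPM than either wild-type library and the other edited libraries were higher (log2 fold change 0.79, SE 0.61, edgeR adjusted p = 0.407). PCDHA1 had 4, 9 and 4 reads in the edited libraries, in that order, against 4 and 3 reads in wild type, with higher CPM in every edited library but no call with the filter on total reads (edgeR adjusted p = 0.331).

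The C-type alpha genes lie at the end of their cluster. PCDHAC2, known from the spacing of serotonergic axons in mice, had 3, 1 and 2 reads in clone 2 and clone 6 replicates 1 and 2, against 8 and 5 reads in wild-type replicates 1 and 2. It was lower in every edited library and not called (log2 fold change -1.22, SE 0.61, edgeR adjusted p = 0.244). PCDHAC1 had 4, 0 and 1 reads in the edited libraries, in that order, and 5 and 3 in wild type, with overlap. PCDHA3 had 12 reads in all and also overlapped, and the other 11 alpha genes had at most 7 reads each.

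Per kilobase of exon that no other annotated gene overlaps, a measure that allows levels to be compared between genes, PCDHGC3 led with 6.89 CPM per kilobase in edited and 7.00 in wild-type cells. PCDHGB4 followed with 1.64 in edited and 2.14 in wild-type cells, and PCDHGA6 had 1.31 in edited and 1.36 in wild-type cells. The highest beta genes of wild-type cells stood near these. PCDHB11 had 1.20 CPM per kilobase in edited and 1.38 in wild-type cells, PCDHB12 had 0.932 in edited and 1.22 in wild-type cells, and PCDHB16 had 0.112 in edited and 1.24 in wild-type cells. In wild type these 3 beta levels spread over their replicates (0.982 to 1.52 CPM per kilobase) and gave no firm order, while in edited cells PCDHB16 lay below the other two in every library. The constant exons shared within the alpha and gamma clusters are thereby left out of the length, and whether reads on them were counted is not stated in the sources used.

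With clone 6 replicate 2 apart, edgeR was fitted to 3 sets of libraries over 16471 genes, of which 29 were members. Clone 2 and clone 6 replicate 1 together had 5 of the 29 lower than wild type, a share near the 18.6% of all genes. In the other direction 0 were higher, where 17.8% of all genes were. The 5 were again PCDHB2, PCDHB8, PCDHB16, PCDHB9 and PCDHB13. At an unadjusted p below 0.05, 6 members were lower and 1 was higher. That 1 was PCDHGC3, with 27.4 CPM on average in the pair of edited libraries and 22.7 CPM in wild type (log2 fold change 0.27, SE 0.10, edgeR adjusted p = 0.0533). It was called higher with upper-quartile scaling, with a filter of 1 CPM in 2 libraries, and without wild-type replicate 2.

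Clone 6 replicate 2 had 8 members lower than wild type, where 18.8% of all genes were lower, and 0 higher, where 20.5% of all genes were. At an unadjusted p below 0.05, 10 members were lower and 0 higher. This is 1 library, assumed to vary like the others. The comparison shares its wild-type libraries with the one before, so the common calls are not independent. The 8 were the 5 genes above, PCDHB12, PCDHB14 and PCDHGC3. PCDHB16 fell by 3.88 on the log2 scale in clone 6 replicate 2 (SE 0.58, edgeR adjusted p = 0.00062) and had a log2 fold change of -3.34 in clone 2 and clone 6 replicate 1 (SE 0.42, edgeR adjusted p = 0.000224). PCDHB12 had a log2 fold change of -0.96 in clone 6 replicate 2 (SE 0.26, edgeR adjusted p = 0.0165), but its difference from the other edited libraries was not called (-0.78, SE 0.27, edgeR adjusted p = 0.0718). Without wild-type replicate 2, more members were called lower, and so were more of all genes.

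**Figure D5:**
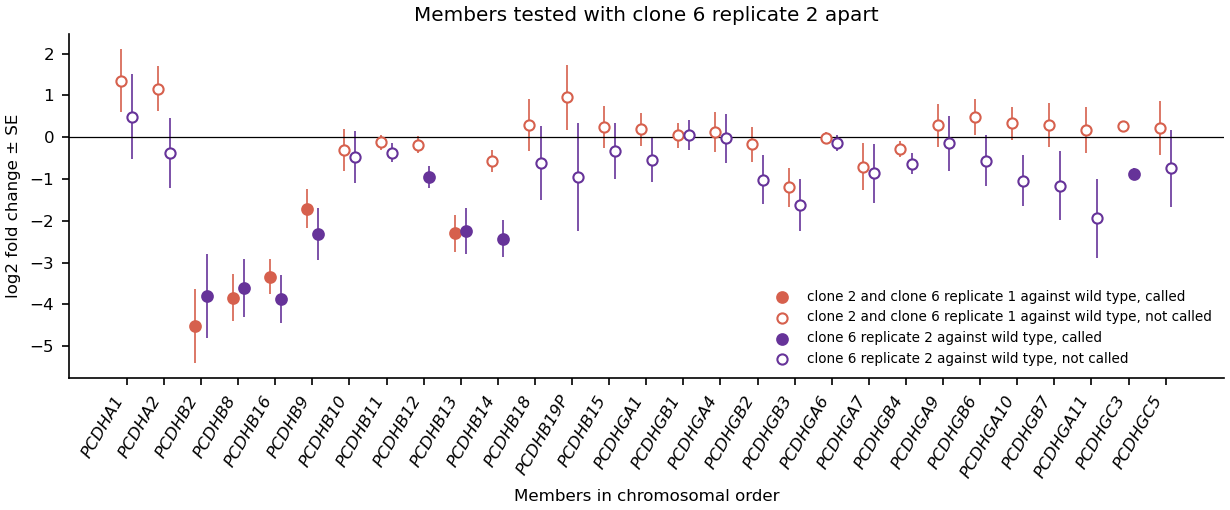
log2 fold change against wild type (vertical axis, ± SE) of the 29 members tested with clone 6 replicate 2 apart, in chromosomal order. Red marks clone 2 with clone 6 replicate 1 and purple clone 6 replicate 2, and filled points have an edgeR adjusted p below 0.05. Both sets lie low at PCDHB2, PCDHB8, PCDHB16, PCDHB9 and PCDHB13, while PCDHB14 and PCDHGC3 lie lower in clone 6 replicate 2.

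The difference between the edited libraries was tested directly, and the share of members called lower was near that of all genes. Clone 6 replicate 2 had 2 members lower than clone 2 and clone 6 replicate 1, where 8.82% of all genes were lower, and 0 higher, where 11.2% of all genes were, with 4 lower and 0 higher at an unadjusted p below 0.05. PCDHB14 (ENSG00000120327) had 0.436 CPM in clone 6 replicate 2, against 1.61 CPM in each of clone 2 and clone 6 replicate 1, and wild-type replicates 1 and 2 had 2.22 and 2.59 CPM. Clone 6 replicate 2 was the lowest of all libraries. The difference from the other edited libraries was -1.86 on the log2 scale (SE 0.48, edgeR adjusted p = 0.0239), and this call was lost without clone 2 (edgeR adjusted p = 0.0812) or without clone 6 replicate 1 (0.107). PCDHGC3, with the values given above, differed by -1.14 on the log2 scale (SE 0.13, edgeR adjusted p = 0.000461).

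Ratios within libraries are given here too, again of a called gene to one not called in this comparison, so they are no further test. For each 100 reads of PCDHGA6 there were 176 reads of PCDHGC3 in clone 6 replicate 2, against 376 in clone 2 and 334 in clone 6 replicate 1, and 281 and 305 in wild-type replicates 1 and 2. For each 100 reads of PCDHB12 there were 17.9 reads of PCDHB14 in clone 6 replicate 2, against 38.5 in clone 2 and 38.2 in clone 6 replicate 1, and 42.5 and 61.0 in wild-type replicates 1 and 2. The genes that fell in all edited libraries showed no call between them, with log2 differences of 0.06 (SE 0.72) for PCDHB13 and -0.54 (SE 0.84) for PCDHB16, although these wide errors do not show equal levels.

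Markers of other cell types moved with the genotypes and with clone 6 replicate 2. Fibroblast and pericyte markers, 6 of 7 tested with 3 lower and 1 higher in edited cells, summed to between 550 and 1747 CPM in edited and between 1792 and 1997 CPM in wild-type libraries. Most of this sum was COL1A1, which was not called between genotypes (edgeR adjusted p = 0.471), and 4 of the markers were lower in clone 6 replicate 2 than in the other edited libraries. Endothelial markers, 4 with a value of 5, summed to between 2.12 and 2.83 CPM in edited and between 20.3 and 20.4 CPM in wild-type libraries, and TIE1, which gave nearly all of it in wild type, was the 1 called of 2 tested. Of 8 neuron markers, TUBB3 and STMN2 had 0 reads, 3 were tested and 2 were higher, and the list summed to between 19.3 and 22.2 CPM in edited and between 7.25 and 7.32 CPM in wild-type libraries. Oligodendrocyte markers had MOG and MAG at 0 reads, 1 lower and 1 higher of 2 tested, and sums between 9.21 and 10.8 CPM in edited and between 8.86 and 10.9 CPM in wild-type libraries. Microglial markers had CX3CR1 at 0 reads, 0 called of 1 tested, and sums of at most 1.30 CPM in edited and 2.49 CPM in wild-type libraries. The part of these markers in the beta and gamma results was not tested. With the share of ribosomal RNA reads as a covariate, 5 members were again called lower.

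Other genes around the clusters were taken from lists. Of 11 non-clustered protocadherins, single genes with adhesion roles of their own, 5 were tested. Of these 2 fell and 0 rose, beside 10.2 and 8.27% of all genes. Both that fell, PCDH7 and PCDH10, passed the low-count filter through wild type alone, with every edited library below its limit of 0.604 CPM. PCDH7 had 1 read in all edited libraries together, against 76 reads in wild type, and wild type exceeded edited cells 85.2-fold (95% counting interval 14.8 to 3407). PCDH10 had 3 reads in edited libraries, against 76 in wild type, with wild type 28.4-fold higher (95% counting interval 9.35 to 141). Their log2 fold changes were -6.02 (SE 0.67, edgeR adjusted p = 0.00275) and -4.66 (SE 0.67, edgeR adjusted p = 0.00639). PCDH9, with 462 edited and 433 wild-type reads, had a log2 fold change of -0.09 (SE 0.20) and was not called.

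Of 25 genes for promoter choice and chromatin at the clusters, 24 were tested, 3 fell and 2 rose, shares near the 10.2 and 8.27% of all genes. DNMT3A, a de novo DNA methyltransferase, averaged 23.6 ± 0.407 CPM in edited and 47.1 ± 3.45 CPM in wild-type libraries (SD, n = 3 and 2), and fell by 0.99 on the log2 scale (SE 0.10, edgeR adjusted p = 0.00216). The related DNMT3B averaged 40.6 ± 2.48 CPM in edited and 28.2 ± 0.241 CPM in wild-type libraries (log2 fold change 0.52, SE 0.10, edgeR adjusted p = 0.0183). The cohesin regulator PDS5B fell (log2 fold change -0.81, SE 0.16, edgeR adjusted p = 0.0189), and LRIF1, a partner of SMCHD1 on silent chromatin, rose (0.87, SE 0.11, edgeR adjusted p = 0.00387). CTCF averaged 68.2 ± 3.55 CPM in edited and 86.7 ± 3.51 CPM in wild-type libraries (log2 fold change -0.35, SE 0.09, edgeR adjusted p = 0.0408). The cohesin subunit RAD21 (log2 fold change 0.23, SE 0.09) and SMCHD1 (0.10, SE 0.09) were not called.

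Of 21 genes for protein partners and processing, all tested, 4 fell and 2 rose. The WAVE complex links protocadherin tails to actin, and its members WASF3 (log2 fold change -1.40, SE 0.14), ABI2 (-1.01, SE 0.08) and CYFIP1 (-0.38, SE 0.08) fell, as did APH1A (-0.34, SE 0.08), a subunit of the gamma-secretase that cleaves protocadherins. The other WAVE complex genes of the list, WASF1, WASF2, ABI1, BRK1, CYFIP2 and NCKAP1, were not called, with log2 fold changes between -0.26 and 0.15. The kinase FYN (0.74, SE 0.10) and the focal adhesion kinase PTK2 (0.32, SE 0.09), an interaction partner of protocadherin tails, rose. Together the 3 lists had 9 of 50 tested genes lower and 4 higher, beside 10.2 and 8.27% of all genes. Without wild-type replicate 1 these counts were 4 and 0, and without wild-type replicate 2 they were 5 and 1. Without clone 2 the higher count was 2, and likewise without clone 6 replicate 1.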

How the data were processed

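Total RNA of 5 SVG-10B1 libraries was sequenced on Illumina HiSeq, per the labels' protocols. The authors deposited 1 table of raw read counts per library, in whole numbers per gene. Trimmomatic, STAR and HTSeq stand in the submitters' processing notes without versions, with the build hg19 (GRCh37). Annotation release, strand setting and treatment of overlapping genes were not stated in the sources used here. Of 63677 genes listed, 5772 had empty values and were left out, and 0 entries named no gene.

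Counts were tested with edgeR 4.0.16 (limma 3.58.1, R 4.3.3) by the quasi-likelihood F test with TMM scaling, filterByExpr by genotype and Benjamini-Hochberg adjustment over all genes tested, with 3 residual degrees of freedom for the genotypes and 2 for the 3 sets of libraries. DESeq2 1.42.0 was an alternative. The procedure was tested on simulated data. CPM and log2 fold changes were computed here, the fold changes with edgeR's default prior count. A prior count of 2 was used for the log2 CPM values behind the differences between libraries. Counting intervals are exact Poisson intervals at 95%, and they and the floor of 3 reads cover counting error only.

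The members, the gene lists and the split of the edited libraries were chosen with earlier results of these data known. Genes named in full were members called in any of the 4 comparisons, the 4 members of each cluster with the most reads and the C-type genes, and from the other lists up to 4 called genes each way with CTCF, RAD21 and SMCHD1. Other genes named were chosen after their values were seen.

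Gene order, exon lengths and coding likeness came from GENCODE 29 (GRCh38), where 56 members matched by identifier and 1, PCDHB16, by symbol. Because the counts rest on another build, no positions were carried between builds. Identity was computed with edlib over whole coding sequences. Alternatives changed the scaling, filter, tool, replicate block, ribosomal RNA covariate and libraries included.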

Additional observations from a re-analysis of the deposited data

Results flagged for a closer look

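Among the edited libraries, PCDHB14 and PCDHGC3 differed between clone 6 replicate 2 and the pair of clone 2 and clone 6 replicate 1 in a direct test of that difference. The log2 difference was -1.86 for PCDHB14 and -1.14 for PCDHGC3, both lower in clone 6 replicate 2.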

How the results depend on the processing

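In the comparison of edited with wild-type libraries, 5 members were called lower, beside 1575 of all genes. With no filter beyond 1 read, 8 members were lower, beside 2377 of all genes. With 1 edited library left out, between 4 and 6 members were lower, beside between 851 and 3133 of all genes. Leaving out a wild-type replicate leaves 1 wild-type library, and fewer members and fewer of all genes were then called lower. In log2 CPM, the deviation of replicate 1 from its pair mean correlated at 0.196 over genes between wild type and clone 6. Nothing in the labels says that a replicate number marks a shared batch. With the replicate number as a block, 6 members were lower, beside 2276 of all genes, and 0 higher, beside 2160 of all genes. For clone 2 and clone 6 replicate 1 against wild type, the 0 members called higher became 1 with upper-quartile scaling and 1 with a filter of 1 CPM in 2 libraries, and 0 to 1 with a library left out. The 2 members lower in clone 6 replicate 2 than in the other edited libraries were 1 to 3 with a library left out. Of the other gene lists, 9 genes were lower, 4 to 13 with a library left out, and 4 were higher, 0 to 4 with a library left out and 2 with clone 2 and clone 6 replicate 1 summed. PCDHB14 was called lower in the edited libraries with no filter beyond 1 read (log2 fold change -1.01, edgeR adjusted p = 0.0225). PCDHB9 lost its call in clone 2 and clone 6 replicate 1 against wild type in 3 of 9 alternatives. The cause of these shifts was not tested. No named member reversed a call under any alternative run. Depth limits the members, as 15 of 57 had fewer than 10 reads, and the counts of near-identical or overlapping members depend on a read assignment not stated in these sources.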
